A study of Mus musculus with 9 samples.

Results

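Sarcolipin is a small membrane peptide of the sarcoplasmic reticulum (SR), the calcium store of the muscle fibre, and is encoded by Sln. It is described here with 9 further genes of SR calcium handling, Pln, Atp2a1, Atp2a2, Casq1, Casq2, Ryr1, Cacna1s, Pvalb and Jph1. These 10 genes were taken by symbol from the 54532 genes of the deposited table. Sln was selected on its FPKM values over these same libraries, so its levels are given as a description with no test. The other 9 were chosen by function, with earlier results of these data known.

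The tissue was tibialis anterior, a fast muscle at the front of the lower leg, collected after injury from 3 groups of mice. The groups were old P311-/- mice, old wild-type mice of 24 months and young wild-type mice of 4 to 6 months, each with 3 polyA RNA libraries. P311 is a small intracellular protein encoded by Nrep, and the wild-type groups carry no stated allele. Not given in the sources used here are the months of age of the P311-/- mice, how the allele was made, the kind of injury and how long after it tissue was taken. Whether replicates are separate animals is not stated either, so the p-values reflect spread between libraries, which may be technical. Old P311-/- was set against old wild type (the genotype comparison), old wild type against young wild type (the age comparison) and, as the combined comparison, old P311-/- against young wild type.

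In a resting fibre the calcium pumps SERCA1 and SERCA2 move calcium from the cytosol into the SR, where calsequestrin holds it. On excitation the voltage sensor in the surface membrane opens the ryanodine receptor in the SR membrane, calcium leaves, and the fibre contracts. Sarcolipin, phospholamban and related micropeptides bind the pumps and set how well they work. Sarcolipin is known to lower the calcium moved for each ATP used, and in mice it is low in adult fast muscle and higher in newborn, atrial, diseased and regenerating muscle.

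The coding sequences of 3 of these micropeptides are printed because they show how small the products are beside the transcripts that were counted. They come from GENCODE M21 transcripts on GRCm38, 5′ to 3′ on the coding strand, with the start and stop codons in capitals. The Sln sequence has 96 bases and lies at chr9:53853473-53853568, plus strand. It is 31 codons and a stop, and makes up 7.28% of its transcript of 1318 bases. The Pln sequence has 159 bases at chr10:53343864-53344022, plus strand, and that of Mrln, the gene of myoregulin, has 141 bases at chr10:70219496-70219636, plus strand. In a global alignment the coding bases of Sln and Pln were identical at 45.3% of 159 columns, with a longest shared run of 8 bases.
Sln: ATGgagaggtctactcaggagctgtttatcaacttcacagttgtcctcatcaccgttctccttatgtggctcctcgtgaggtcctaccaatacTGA
Pln: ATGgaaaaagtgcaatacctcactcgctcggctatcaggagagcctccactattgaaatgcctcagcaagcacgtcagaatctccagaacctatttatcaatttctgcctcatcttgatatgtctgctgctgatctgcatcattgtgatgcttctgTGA
Mrln: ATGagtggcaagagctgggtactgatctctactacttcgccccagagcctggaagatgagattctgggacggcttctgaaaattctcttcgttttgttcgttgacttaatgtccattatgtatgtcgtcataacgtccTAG

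Between 14222204 and 31910890 reads per library were recovered from the deposited values. Nrep, the gene behind the P311-/- label, stood at 14.8, 6.37 and 9.72 FPKM in old P311-/- replicates 1, 2 and 3. It had 71.4 to 83.1 FPKM in old wild type and 63.9 to 86.3 FPKM in young wild type. FPKM is reads per gene length and per scaled library size. All 7 defining markers of skeletal muscle fibres were detected in every library. Old P311-/- replicate 1 stood apart from its group. Its Euclidean distance over 14233 tested genes was 86.0 and 81.9 to replicates 2 and 3. It was 59.6 to 70.0 to the old wild-type libraries and 64.8 to 74.2 to the young ones. Replicates 2 and 3 lay 66.7 from each other and 78.6 to 99.0 from the wild-type libraries of either age. Several results that rest on the old P311-/- group are therefore given with and without that library, and others with all 9 libraries only. Replicate 1 was singled out from these same data for lying nearer to wild type than to its own group. Fits without it thus lean toward larger differences and lower p-values. They are given as a description and not as an independent result. In whole muscle, fewer cells of a type and less RNA per cell cannot be told apart.

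Sln (ENSMUSG00000042045, chr9:53850164-53854560, plus strand) stood highest in old wild-type muscle and lowest in young wild-type muscle, with old P311-/- muscle between. Its level was 170.3, 134.1 and 90.0 FPKM in old P311-/- replicates 1, 2 and 3. Old wild-type replicates had 134.0, 325.0 and 374.7 FPKM, and young wild-type replicates 49.1, 39.8 and 39.6 FPKM. Every library of either old group lay above every young library, while old P311-/- and old wild type overlapped, because old wild-type replicate 1 lay just below old P311-/- replicate 2.

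Group means of Sln were 131 ± 40.2 FPKM in old P311-/-, 278 ± 127 FPKM in old wild type and 42.8 ± 5.46 FPKM in young wild type (SD, n = 3 each). The old wild-type mean was 6.49 times the young one, the old P311-/- mean was 3.07 times the young one, and the old P311-/- mean was 0.473 times the old wild-type one. On the scale of log2(FPKM + 0.1), which understates the change of low genes, the difference was -0.995 in the genotype comparison, 2.57 in the age comparison and 1.57 in the combined comparison. Over 17 other settings of the fit these values ranged from -1.46 to -0.71, from 2.29 to 3.03 and from 1.36 to 1.82. Without old P311-/- replicate 1 the differences that involve that group were -1.21 and 1.36.

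Short genes as a class moved in the same directions by smaller amounts. The Sln gene model has 1318 bases. The 2241 tested genes under 1500 bases had a median log2 fold change of -0.187 in the genotype comparison, 0.254 in the age comparison and 0.0902 in the combined comparison. The part of transcript length in the Sln values was not tested.

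**Figure D1:**
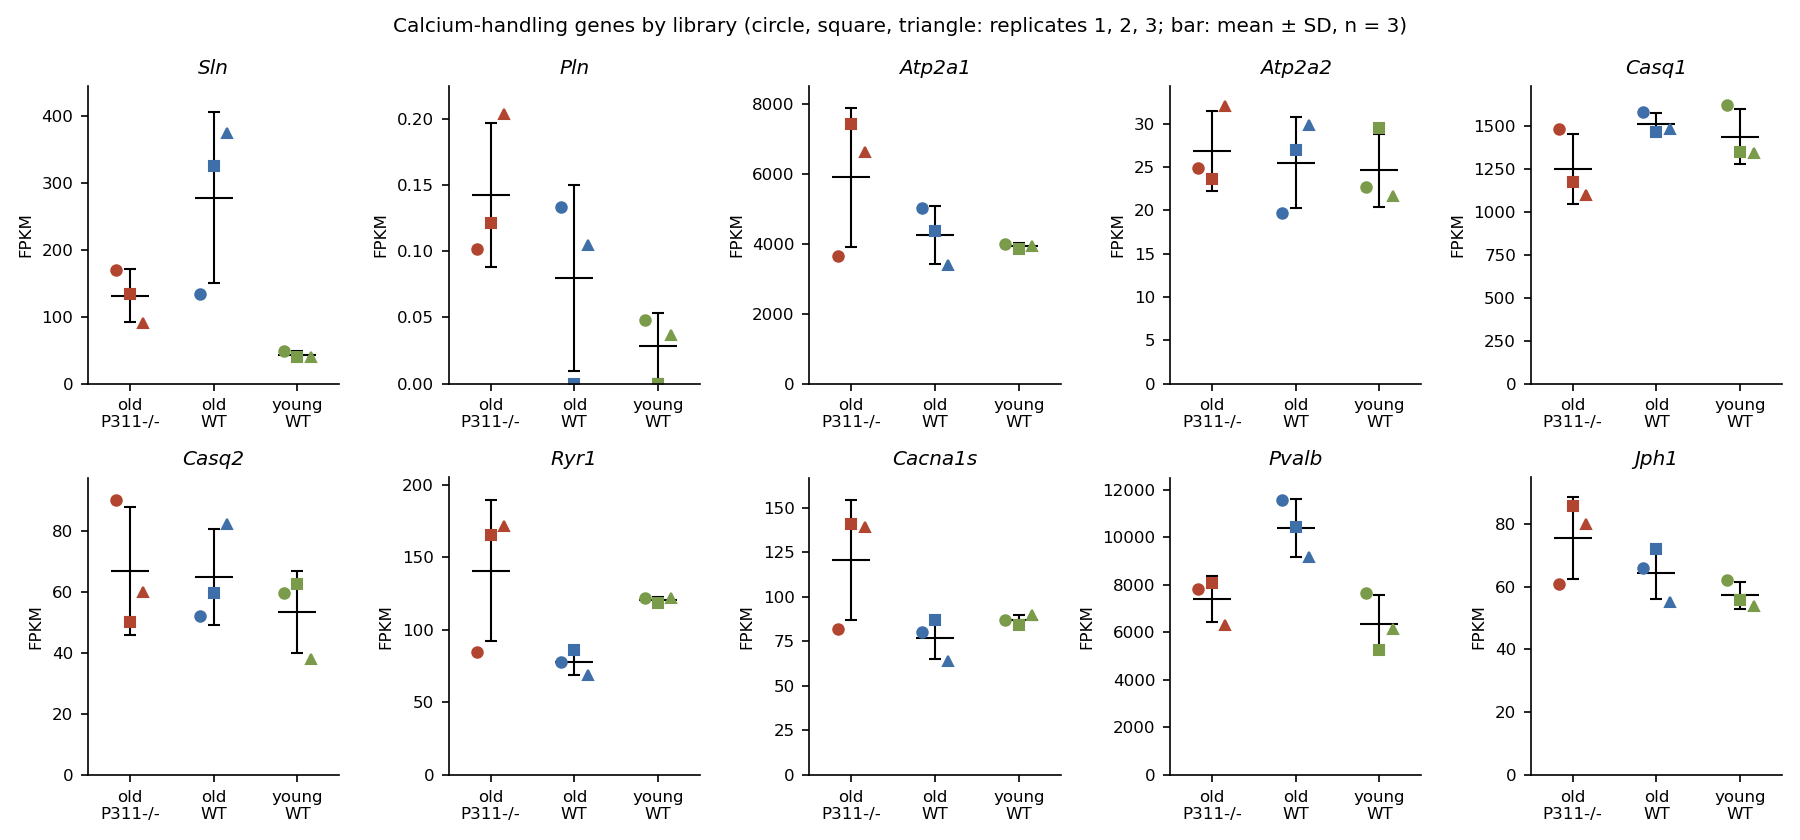
FPKM of the 10 genes in each library, with old P311-/- on the left, old wild type in the middle and young wild type on the right of each panel. Symbols are replicates and bars are mean ± SD of 3 libraries; Sln and Pvalb averaged most in old wild type, and the circle of old P311-/- replicate 1 lies apart from the square and triangle for Atp2a1, Ryr1 and Cacna1s.

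Pln (ENSMUSG00000038583, chr10:53337667-53345987, plus strand) encodes phospholamban, the pump inhibitor of heart and slow muscle. It was close to the limit of detection and was not tested. Its reads numbered 8, 6 and 17 in old P311-/-, 8, 0 and 7 in old wild type and 2, 0 and 2 in young wild type. The values were 0.102 to 0.204 FPKM in old P311-/-, at most 0.134 FPKM in old wild type and at most 0.0479 FPKM in young wild type. A count of 0 allows up to 0.0656 FPKM in old wild-type replicate 2 and 0.0651 FPKM in young wild-type replicate 2, taken as 3 reads and covering counting error alone. The gene lies across Cep85l on the other strand, which had up to 2580 reads in a library, and the sources used here do not say whether strand was used in counting.

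The other micropeptides of this kind stood below Sln in every library. Mrln, which encodes the pump inhibitor myoregulin, had 14.7, 19.8 and 12.2 FPKM in old P311-/-, 23.6, 28.0 and 18.3 FPKM in old wild type and 14.8, 8.21 and 14.1 FPKM in young wild type. Old wild type lay above young wild type with no overlap, and the difference missed the threshold of an adjusted p of 0.05 (log2 fold change 0.94, SE 0.26, limma adjusted p = 0.0647, range over the other settings 0.0441 to 0.204). Against old wild type the old P311-/- value was -0.59 (adjusted p = 0.309). 1810037I17Rik, the mouse gene of another-regulin, averaged 17.3 ± 2.66 FPKM in old P311-/-, 24.1 ± 2.76 FPKM in old wild type and 18.9 ± 1.27 FPKM in young wild type (SD, n = 3 each). It did not pass in any comparison (log2 fold change -0.48 in the genotype comparison, limma adjusted p = 0.253).

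Smim6, the gene of endoregulin, averaged 0.297 FPKM in old P311-/-, 0.424 FPKM in old wild type and 0.932 FPKM in young wild type and did not pass. Strit1, listed in the table as Gm34302 and encoding DWORF, which raises pump activity, had 2 reads in old P311-/- replicate 2, 1 read in old wild-type replicate 1 and 0 in the other libraries.

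Neither pump gene passed in any comparison with all 9 libraries. Atp2a1 (ENSMUSG00000030730, chr7:126445858-126463108, minus strand) encodes SERCA1, the pump of fast fibres. It stood at 3664, 7429 and 6633 FPKM in old P311-/-, 5024, 4366 and 3384 FPKM in old wild type and 4010, 3845 and 3935 FPKM in young wild type. Replicates 2 and 3 of old P311-/- were the highest of all 9 libraries, and replicate 1 was below 2 of the old wild-type libraries. The log2 fold change was 0.43 in the genotype comparison (SE 0.26, limma adjusted p = 0.430) and 0.74 without old P311-/- replicate 1 (adjusted p = 0.0279, range over all other settings 0.0279 to 0.808). With age it was 0.10 (adjusted p = 0.842), and -0.037 under total-count scaling. Atp2a1 overlaps Rabep2 on the other strand, which had at most 1981 reads in a library.

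Atp2a2 (ENSMUSG00000029467, chr5:122453513-122502225, minus strand) encodes SERCA2, the pump of slow fibres and heart. It had 24.9, 23.6 and 32.1 FPKM in old P311-/-, 19.7, 27.0 and 29.9 FPKM in old wild type and 22.7, 29.5 and 21.6 FPKM in young wild type. All 3 groups overlapped, with log2 fold changes of 0.08, 0.04 and 0.13 in the genotype, age and combined comparisons (limma adjusted p = 0.850, 0.910 and 0.739). Under total-count scaling the age and combined values were -0.091 and -0.018.

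The coding sequences of Atp2a1 and Atp2a2 were identical at 71.5% of aligned columns. The longest run they share bears on how reads of the pumps could be told apart. It has 44 bases at positions 2254 to 2297 of the Atp2a1 coding sequence, counted from 1 at the A of the start codon.
Atp2a1 and Atp2a2: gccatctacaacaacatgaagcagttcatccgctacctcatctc

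Within each library, SERCA2 made up under 1% of the summed FPKM of the 2 pump genes. The share was 0.675%, 0.317% and 0.482% in old P311-/-, 0.390%, 0.614% and 0.875% in old wild type and 0.563%, 0.761% and 0.547% in young wild type. The groups overlapped in all 3 comparisons (two-sided exact permutation p = 0.5, 1 and 0.4, adjusted over the 3 comparisons 0.75, 1 and 0.75), where 3 libraries against 3 cannot go below 0.1.

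Set against the pumps, Sln was again highest in old wild type. Per 100 FPKM of Atp2a1 plus Atp2a2 there were 4.62, 1.80 and 1.35 FPKM of Sln in old P311-/-, 2.66, 7.40 and 10.98 FPKM in old wild type and 1.22, 1.03 and 1.0005 FPKM in young wild type. Old P311-/- replicate 1 lay above old wild-type replicate 1 in this ratio. Replicates 2 and 3 lay just above the young libraries.

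**Figure D2:**
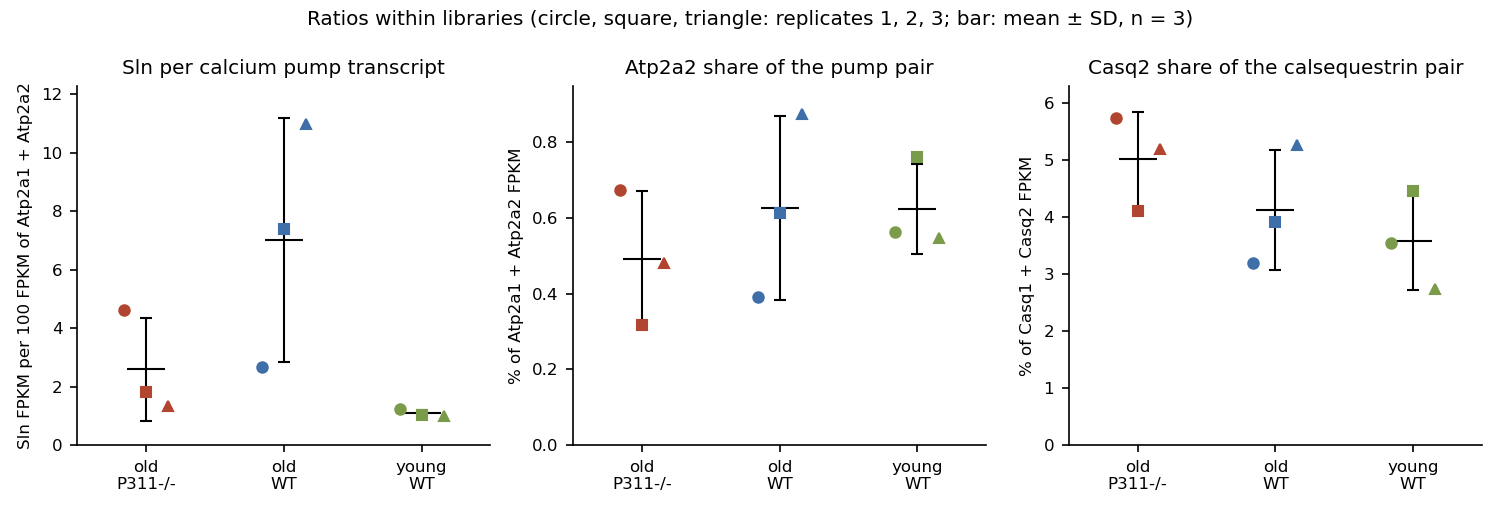
Ratios within each library: Sln per 100 FPKM of pump transcripts (left), the share of Atp2a2 in the pump pair (middle) and the share of Casq2 in the calsequestrin pair (right), each in old P311-/-, old wild type and young wild type. Symbols are replicates and bars are mean ± SD of 3 libraries; the Sln ratio runs from 1.0005 to 1.22 in young wild type and up to 10.98 in old wild type, and the groups overlap in both shares.

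The calsequestrins, which bind calcium inside the SR, did not pass in any comparison. Casq1 (ENSMUSG00000007122, chr1:172209894-172219868, minus strand), the form of fast fibres, stood at 1483, 1175 and 1097 FPKM in old P311-/-, 1585, 1468 and 1481 FPKM in old wild type and 1622, 1347 and 1345 FPKM in young wild type. Old P311-/- replicates 2 and 3 were the lowest of the 9 libraries. The log2 fold change was -0.28 in the genotype comparison (limma adjusted p = 0.385), and -0.41 without old P311-/- replicate 1 (adjusted p = 0.0697, the lowest over the other settings, which reached 0.797). With age it was 0.08 (adjusted p = 0.789), and -0.058 under total-count scaling.

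Casq2 (ENSMUSG00000027861, chr3:102086415-102146514, plus strand), the form of heart and slow fibres, had 90.2, 50.2 and 59.998 FPKM in old P311-/-, 52.2, 59.7 and 82.4 FPKM in old wild type and 59.5, 62.7 and 37.8 FPKM in young wild type. All groups overlapped, and the log2 fold changes were 0.03, 0.29 and 0.31 in the genotype, age and combined comparisons (limma adjusted p = 0.969, 0.531 and 0.520). Without old P311-/- replicate 1 the genotype value was -0.21 (adjusted p = 0.608). Casq2 made up 5.01% ± 0.832 of the calsequestrin FPKM in old P311-/-, 4.12% ± 1.055 in old wild type and 3.57% ± 0.856 in young wild type (SD, n = 3 each; two-sided exact permutation p = 0.3, 0.6 and 0.2, adjusted 0.45, 0.6 and 0.45). The 2 coding sequences were identical at 63.0% of aligned columns, and their longest shared run, at positions 1190 to 1214 of the Casq1 coding sequence, is the acidic repeat near the end.
Casq1 and Casq2: acgatgacgatgatgatgacgacga

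Old P311-/- replicates 2 and 3 held more Ryr1, Cacna1s and Jph1, which serve calcium release, than any other library, and none of these genes passed in any comparison by limma with all 9 libraries. Ryr1 (ENSMUSG00000030592, chr7:29003344-29125179, minus strand), the ryanodine receptor through which calcium leaves the SR, stood at 85.1, 165 and 172 FPKM in old P311-/-, 77.8, 86.4 and 69.2 FPKM in old wild type and 122, 118 and 122 FPKM in young wild type. The old wild-type libraries all lay below the young ones. Old P311-/- replicate 1 lay among the old wild-type libraries, and replicates 2 and 3 lay above every other library. The log2 fold change with age was -0.64 (SE 0.24, limma adjusted p = 0.135, range over the other settings 0.0157 to 0.301). In the genotype comparison it was 0.79 (SE 0.24, adjusted p = 0.253), and 1.12 without old P311-/- replicate 1 (adjusted p = 0.00292, range over the other settings 0.00292 to 0.732). The combined value was 0.15 (adjusted p = 0.746), and 0.48 without that replicate (adjusted p = 0.0236, range over the other settings 0.0236 to 0.997). Ryr1 has the longest gene model of the 10, at 21838 bases. The 1130 tested genes of at least 10000 bases had a median log2 fold change of -0.163 in the age comparison and 0.0744 in the genotype comparison, and the part of length in the Ryr1 values was not tested.

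Cacna1s (ENSMUSG00000026407, chr1:136052750-136119822, plus strand), the voltage sensor that opens the ryanodine receptor, had 81.8, 141 and 139 FPKM in old P311-/-, 80.4, 87.0 and 63.8 FPKM in old wild type and 86.8, 84.2 and 89.7 FPKM in young wild type. Again old P311-/- replicates 2 and 3 were the highest libraries and replicate 1 lay within the old wild-type range. The log2 fold change in the genotype comparison was 0.62 (SE 0.21, limma adjusted p = 0.266), and 0.87 without old P311-/- replicate 1 (adjusted p = 0.00911, range over the other settings 0.00911 to 0.732). With age it was -0.19 (adjusted p = 0.616). There were 1.04, 1.17 and 1.23 FPKM of Ryr1 for each FPKM of Cacna1s in old P311-/-, 0.968, 0.992 and 1.08 in old wild type and 1.40, 1.40 and 1.36 in young wild type. Every young library lay above every old library of either genotype in this ratio, which was chosen with the values known and is given with no test.

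Jph1 (ENSMUSG00000042686, chr1:16964560-17097889, minus strand) encodes junctophilin 1, which ties the SR to the surface membrane where release happens. It had 60.9, 85.7 and 79.8 FPKM in old P311-/-, 66.0, 72.1 and 55.2 FPKM in old wild type and 62.2, 55.8 and 53.9 FPKM in young wild type. All groups overlapped. The log2 fold change was 0.22 in the genotype comparison (limma adjusted p = 0.502), 0.16 in the age comparison (adjusted p = 0.550) and 0.38 in the combined comparison (adjusted p = 0.210). The last was 0.53 without old P311-/- replicate 1 (adjusted p = 0.0272, range over the other settings 0.0272 to 0.502).

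Pvalb (ENSMUSG00000005716, chr15:78191114-78206400, minus strand) encodes parvalbumin, a soluble protein that takes up calcium in the cytosol of fast fibres and speeds their relaxation. It was the most abundant of the 10 transcripts per length by group mean, with 7846, 8095 and 6318 FPKM in old P311-/-, 11581, 10413 and 9152 FPKM in old wild type and 7644, 5258 and 6148 FPKM in young wild type. All 3 old wild-type libraries lay above all 6 others. Its log2 fold change with age was 0.72 (SE 0.19, limma adjusted p = 0.0565), just short of the threshold. It passed with voom on the recovered reads (0.72, adjusted p = 0.0478) and without old P311-/- replicate 1 (adjusted p = 0.0350), within a range of 0.0350 to 0.182 over the other settings. In the genotype comparison it was -0.49 (adjusted p = 0.280), and -0.53 without old P311-/- replicate 1 (adjusted p = 0.105). The Pvalb gene model has 1041 bases and falls in the same length class as Sln, and the part of length was not tested here either.

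**Figure D3:**
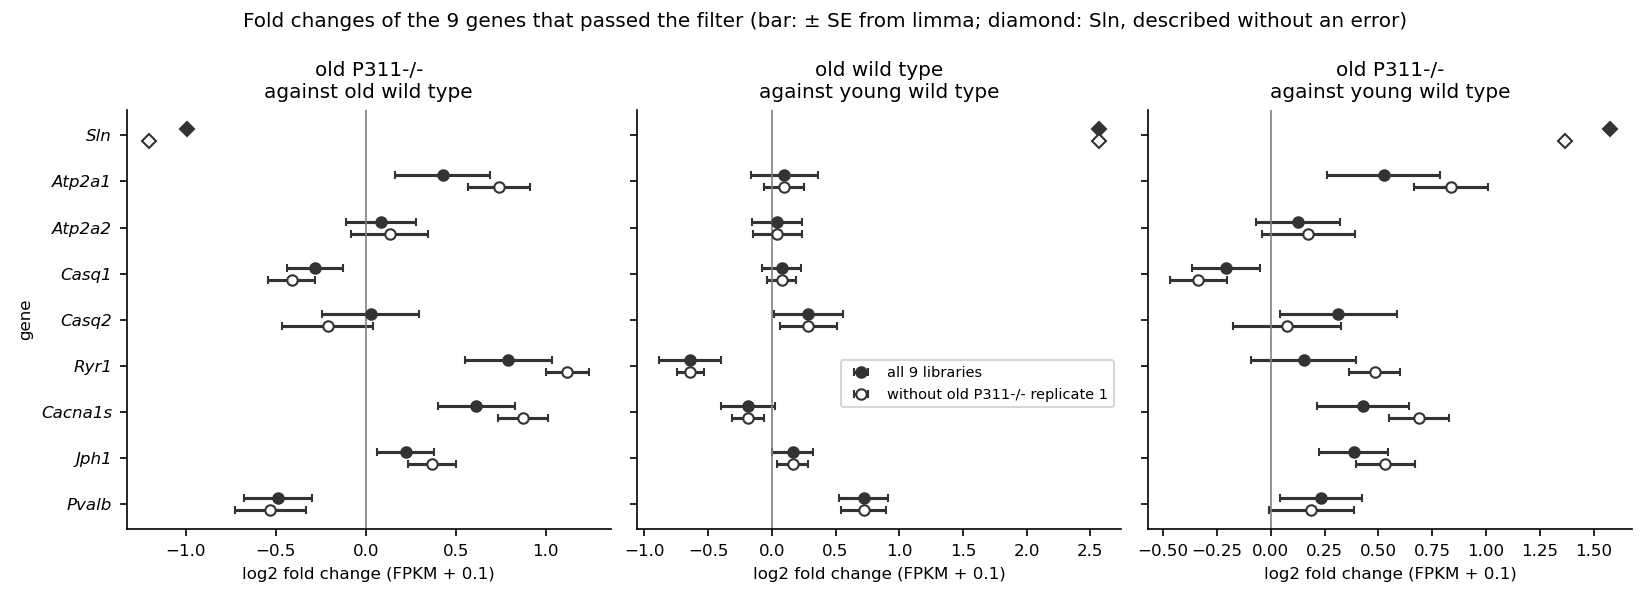
Log2 fold changes of the 9 genes that passed the filter, in 3 panels for the 3 comparisons, with all 9 libraries (filled) and without old P311-/- replicate 1 (open). Bars are ± SE from limma, and the diamonds of Sln carry none; in the genotype comparison the open points of Atp2a1, Ryr1 and Cacna1s, at 0.74, 1.12 and 0.87, lie farther from 0 than the filled ones.

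Of the 10 genes, 9 passed the filter on low values and 8 were tested, since Sln was described alone. By limma over all 14233 genes, 0 of the 8 passed in each comparison. In all, 0.0703% of genes passed in the genotype comparison, 5.4% in the age comparison and 0.4% in the combined comparison. At an unadjusted p under 0.05 there were 3 of the 8 (Ryr1, Cacna1s and Pvalb), 2 (Pvalb and Ryr1) and 1 (Jph1) in the same order, beside 16.1%, 26.3% and 21.4% of all genes. With voom 0, 1 and 0 passed, beside 0.0492%, 7.06% and 0.977% of all genes, and the 1 was Pvalb.

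The groups did not overlap for Pvalb, which was lower in old P311-/- than in old wild type, beside 9.39% of all tested genes. In the age comparison they did not overlap for Pvalb, which was higher, and Ryr1, which was lower, beside 19% and 18.1% of genes in those directions. Without old P311-/- replicate 1, 3 of the 8 were higher in the genotype comparison (Atp2a1, Ryr1 and Cacna1s), beside 6.97% of all genes, and 4 were higher against young wild type (the same 3 and Jph1), beside 10.3%. In that fit the age comparison had 1 of the 8 higher (Pvalb, limma adjusted p = 0.0350) and 1 lower (Ryr1, adjusted p = 0.0157). Over all genes 13.2%, 12.3% and 19.6% passed in the genotype, age and combined comparisons. The library was left out after its values were seen, so these counts lean toward a difference. It enters the age comparison only through the spread shared by the fit. With the 6 wild-type libraries alone, Pvalb and Ryr1 also passed with age (limma adjusted p = 0.0376 and 0.0215), beside 1653 of the 14233 genes.

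By mean level, Pvalb, Atp2a1 and Casq1 led in every group, and Atp2a2 and Pln closed the order. Sln changed its place. In old wild type it stood 4th, above Ryr1, Cacna1s, Casq2 and Jph1, and its range lay above theirs. In old P311-/- it stood 5th, after Ryr1, within overlapping ranges from Ryr1 to Casq2. In young wild type it stood 8th, behind Casq2 and Jph1, where neighbours from Jph1 to Sln overlapped.

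The other genes of the pathway are given from lists that also hold the genes above, leaving out Sln. In the age comparison, 2 of 8 tested pumps and exchangers passed, and both fell, beside 2.01% of all genes that fell and 3.39% that rose. Atp2b3, a calcium pump of the cell surface, stood at 2.03 ± 0.325 FPKM in old and 3.93 ± 0.257 FPKM in young wild type (SD, n = 3 each; log2 fold change -0.93, limma adjusted p = 0.0307). Slc8a1, a sodium-calcium exchanger, stood at 2.27 ± 0.363 against 4.36 ± 0.772 FPKM (SD, n = 3; -0.91, adjusted p = 0.0449). The median log2 fold change over the 8 genes was -0.055, beside 0.0050 over all tested genes. Of 9 genes of the SR lumen 1 fell, Calr, a calcium-binding chaperone, at 52.8 ± 11.2 against 80.3 ± 4.99 FPKM (SD, n = 3; -0.62, adjusted p = 0.0477).

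Of 9 genes of mitochondrial calcium uptake 1 rose, the uptake regulator Micu3, at 3.62 FPKM in old and 2.199 FPKM in young wild type (log2 fold change 0.71, limma adjusted p = 0.0426). In the list of cytosolic buffers and calcineurin-NFAT signalling 1 of 16 fell, the transcription factor Nfatc2, at 1.67 against 2.87 FPKM (-0.75, adjusted p = 0.0362). None of 16 release genes and none of 7 genes of store-operated entry passed by limma, with 8 and 1 at an unadjusted p under 0.05, beside 26.3% of all genes, and 2 and 0 by voom. With 0, 1 or 2 calls a list, these counts are too small to set the lists apart from the table as a whole. The smallest p among release genes was that of Cacng1, a subunit of the voltage sensor, at 244 ± 34.8 against 153 ± 11.8 FPKM (SD, n = 3; 0.67, adjusted p = 0.0572).

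Calls at this threshold depended on single libraries. The number of genes called over the whole table in the age comparison was 768, and 0 without old wild-type replicate 2 or without young wild-type replicate 3. It was 1, 10 and 14 without young wild-type replicate 2, old wild-type replicate 3 and young wild-type replicate 1. None of the 5 called genes just named passed in any of these fits, where their adjusted p reached 0.167.

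In the genotype comparison no gene of these lists passed by limma or voom with all 9 libraries. At an unadjusted p under 0.05 there were 4 of 8 pumps and exchangers, 5 of 16 release genes, 6 of 16 buffer and calcineurin genes, 2 of 3 micropeptides and 1 each of the lumen, entry and mitochondrial lists, beside 16.1% of all genes. The pumps and exchangers had a median log2 fold change of 0.44 and the release genes 0.26, beside -0.0039 over all tested genes. Without old P311-/- replicate 1, 3 of 8 pumps and exchangers and 5 of 16 release genes were higher. So were 4 of 16 buffer and calcineurin genes and 2 of 7 entry genes, beside 6.97% of all genes. In that fit 1 release gene was lower, beside 6.2%, and none of the micropeptides, lumen genes or mitochondrial genes passed. Slc8a3, the sodium-calcium exchanger of skeletal muscle, averaged 16.5 ± 4.90 FPKM in old P311-/- and 9.44 ± 1.37 FPKM in old wild type (SD, n = 3 each; 0.76, limma adjusted p = 0.253, range over the other settings 0.00546 to 0.732). Calm2, a gene of the calcium sensor calmodulin, averaged 95.0 ± 9.36 FPKM in old P311-/- and 130 ± 1.51 FPKM in old wild type (SD, n = 3 each; -0.46, adjusted p = 0.243, range over the other settings 0.0220 to 0.732).

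With all 9 libraries, old P311-/- and young wild type also differed in no gene of these lists by limma. At an unadjusted p under 0.05 there were 0 to 5 of each list, beside 21.4% of all genes. Without old P311-/- replicate 1, 6 of 16 release genes, 5 of 16 buffer and calcineurin genes and 2 of 8 pumps and exchangers were higher. So were 2 of 9 mitochondrial genes, 1 of 9 lumen genes and 1 of 7 entry genes, beside 10.3% of all genes. In that fit 1 pump or exchanger was lower, beside 1312 of the 14233 genes. Cacng1 came closest with all 9 libraries, at 302 ± 60.2 FPKM in old P311-/- and 153 ± 11.8 FPKM in young wild type (SD, n = 3 each; log2 fold change 0.96, limma adjusted p = 0.0549, range over the other settings 0.00304 to 0.203), and passed with voom. Trdn, which encodes triadin, the partner of calsequestrin and the ryanodine receptor, averaged 141 ± 25.7 against 93.6 ± 8.75 FPKM (SD, n = 3; 0.58, adjusted p = 0.135, range over the other settings 0.0270 to 0.367). All 3 comparisons share libraries in pairs, so their values are not independent of each other.

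The summed FPKM of 7 defining fibre markers was 27461, 37700 and 36204 in old P311-/-, 31698, 28051 and 24954 in old wild type and 26726, 27535 and 27099 in young wild type. It was highest in old P311-/- replicates 2 and 3, the libraries in which Atp2a1, Ryr1 and Cacna1s were highest, and the part of fibre content in those values was not tested. Slow fibre genes summed to 804, 1110 and 1182 FPKM in old P311-/-, 604 to 729 FPKM in old wild type and 661 to 814 FPKM in young wild type. Mybpc1, a myosin-binding protein, made up 83.6% to 89.9% of these sums, and the other 9 genes summed to 110, 112 and 161 FPKM in old P311-/-, 88.4, 88.1 and 99.3 FPKM in old wild type and 119, 90.7 and 70.3 FPKM in young wild type. The 10 fast fibre genes summed to 32711, 38795 and 34758 FPKM in old P311-/-, 40202, 35640 and 35074 FPKM in old wild type and 31529, 30249 and 27546 FPKM in young wild type, so that old and young wild type did not overlap. The fast light chain Mylpf made up 21.7% to 35.9% of them, and the fast troponin Tnnc2 stood at 0.280 to 1.23 FPKM. In the age comparison their median log2 fold change was 0.149, 5 of the 10 values were above 0 and 0 of the 10 rose past the threshold. Of the 10, 1 fell in the age comparison, the IIx myosin Myh1, at 1020 ± 113 against 2110 ± 667 FPKM (SD, n = 3; log2 fold change -1.01, limma adjusted p = 0.0362). Myh1 passed in 2 of the 9 fits that each left out a library. Without old wild-type replicate 2 it did not pass (no gene of the table did).

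The 15 genes of new or denervated fibres did not move as a block. They summed to 1190, 457 and 521 FPKM in old P311-/-, 1225, 799 and 1184 FPKM in old wild type and 886, 1136 and 855 FPKM in young wild type. Actc1, the cardiac actin that new fibres also make, was 38.1% to 83.2% of these sums. The other 14 genes summed to 340, 267 and 322 FPKM in old P311-/-, 206, 253 and 378 FPKM in old wild type and 242, 342 and 224 FPKM in young wild type. The groups overlapped in both sums, and old wild-type replicate 1 had the highest sum with Actc1 and the lowest without it. Chrna1, the alpha subunit of the muscle acetylcholine receptor, stood at 27.4, 37.5 and 22.4 FPKM in old P311-/-, 23.4, 43.1 and 64.4 FPKM in old wild type and 11.1, 16.01 and 13.03 FPKM in young wild type. It rose in old wild type against young wild type (log2 fold change 1.60, limma adjusted p = 0.0358), and missed without old wild-type replicate 2 (adjusted p = 0.126). Chrna1 passed in 4 of the 9 fits that each left out a library. Chrnd, the delta subunit, stood at 5.55, 5.58 and 7.28 FPKM in old P311-/-, 3.71, 7.67 and 10.6 FPKM in old wild type and 3.29, 4.53 and 2.86 FPKM in young wild type, and did not pass (0.92, adjusted p = 0.121; this gene was chosen after its values were seen). Like Sln, both receptor genes were lowest in old wild-type replicate 1 and highest in replicate 3 within that group. Actc1 did not follow this order, with 1019, 546 and 806 FPKM in old wild-type replicates 1, 2 and 3. In old P311-/- and young wild type the receptor genes did not share the order of Sln, which was highest in replicate 1 of both. Chrna1 was highest in replicate 2 of both, and Chrnd in old P311-/- replicate 3 and young wild-type replicate 2. Over the 15 genes the median log2 fold change with age was 0.159 and 9 values were above 0. Only 1 of the 15 rose past the threshold, beside 3.39% of all genes.

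Heart is another source of Sln, Pln, Casq2 and Atp2a2. The 7 heart markers summed to 3.75 to 5.59 FPKM in old P311-/-, 4.49 to 8.43 FPKM in old wild type and 3.49 to 6.10 FPKM in young wild type. Most of this was Tnnt2, which developing skeletal muscle also expresses, at 2.79 to 7.84 FPKM. The atrial light chain Myl7 was listed at 0 in all 9 libraries, and the atrial peptide gene Nppa in 7.

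Macrophage markers, 8 genes, summed to 1574, 675 and 926 FPKM in old P311-/-, 1186 to 1726 FPKM in old wild type and 1450 to 2256 FPKM in young wild type. Markers of fibro-adipogenic progenitors, the connective tissue cells of muscle, summed to 1292, 708 and 809 FPKM in old P311-/-, 1061 to 1295 FPKM in old wild type and 1541 to 1660 FPKM in young wild type. Both sums were lowest in old P311-/- replicates 2 and 3. Without Lyz2, which made up 59.8% to 71.1% of the macrophage sum, old P311-/- replicate 3 had 364 FPKM and old wild-type replicate 2 had 343 FPKM. Their part in the levels of the calcium genes was not tested.

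**Figure D4:**
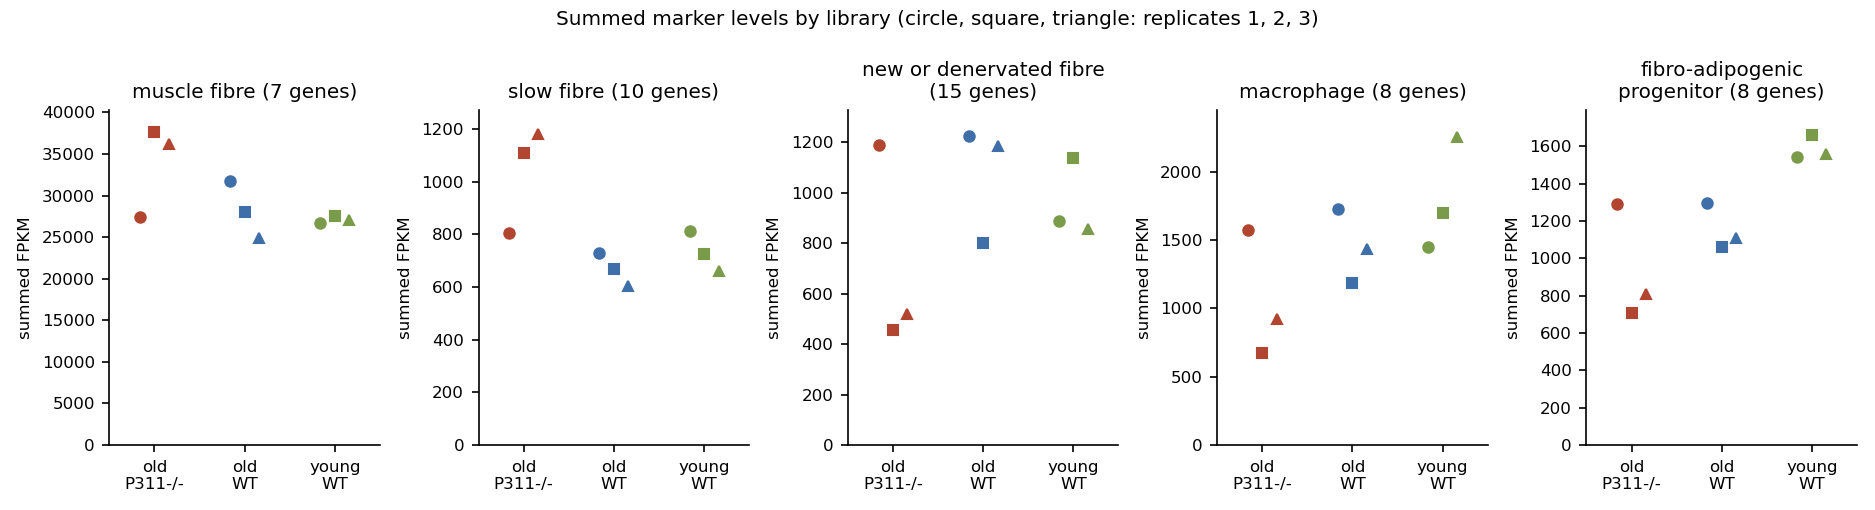
Summed FPKM of marker lists in each library of old P311-/-, old wild type and young wild type; symbols are replicates 1, 2 and 3. In old P311-/- the square and triangle (replicates 2 and 3) lie above the circle for muscle and slow fibre genes and below it for new or denervated fibre, macrophage and progenitor genes; Mybpc1 carries most of the slow fibre sum, and Actc1 up to 83.2% of the new or denervated fibre sum.

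Some genes followed the order of the Sln values closely over the 9 libraries. Among 5572 ranked genes with a mean of at least 5 FPKM and an established symbol, the 6 highest Pearson correlations of log2(FPKM + 0.1) with Sln were those of Rpl27 (r = 0.990), Eif2s3y (0.985), Psma2 (0.981), Mrpl32 (0.980), Rpl22 (0.980) and Cfl2 (0.980). They encode cytosolic and mitochondrial ribosomal proteins, a Y-linked translation factor, a proteasome subunit and the muscle cofilin. The 9 libraries share 3 groups, library scaling and depth, so these r values describe the libraries and carry no p. The spread of these genes was far smaller than that of Sln. Rpl27 averaged 125 ± 9.46 FPKM in old P311-/-, 149 ± 18.4 FPKM in old wild type and 102 ± 5.67 FPKM in young wild type (SD, n = 3 each). Cfl2 averaged 165 ± 14.2, 198 ± 27.8 and 125 ± 12.2 FPKM in those groups.

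The most negative values were those of Heg1 (r = -0.971), a membrane protein of endothelium and heart, Calr (-0.970) and Ace, the angiotensin-converting enzyme (-0.960). Calr had 55.7, 57.6 and 59.5 FPKM in old P311-/-, 65.7, 47.1 and 45.6 FPKM in old wild type and 74.6, 82.3 and 84.0 FPKM in young wild type. Its lowest libraries were the 2 with the most Sln. Among the other calcium genes of the set, r with Sln was 0.751 for Pvalb, 0.535 for Casq2, 0.252 for Jph1, 0.220 for Atp2a2, 0.164 for Casq1, -0.0218 for Atp2a1, -0.243 for Cacna1s and -0.581 for Ryr1. The 6 genes above were picked as the highest of all those ranked, so no comparison with them is drawn.

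**Figure D5:**
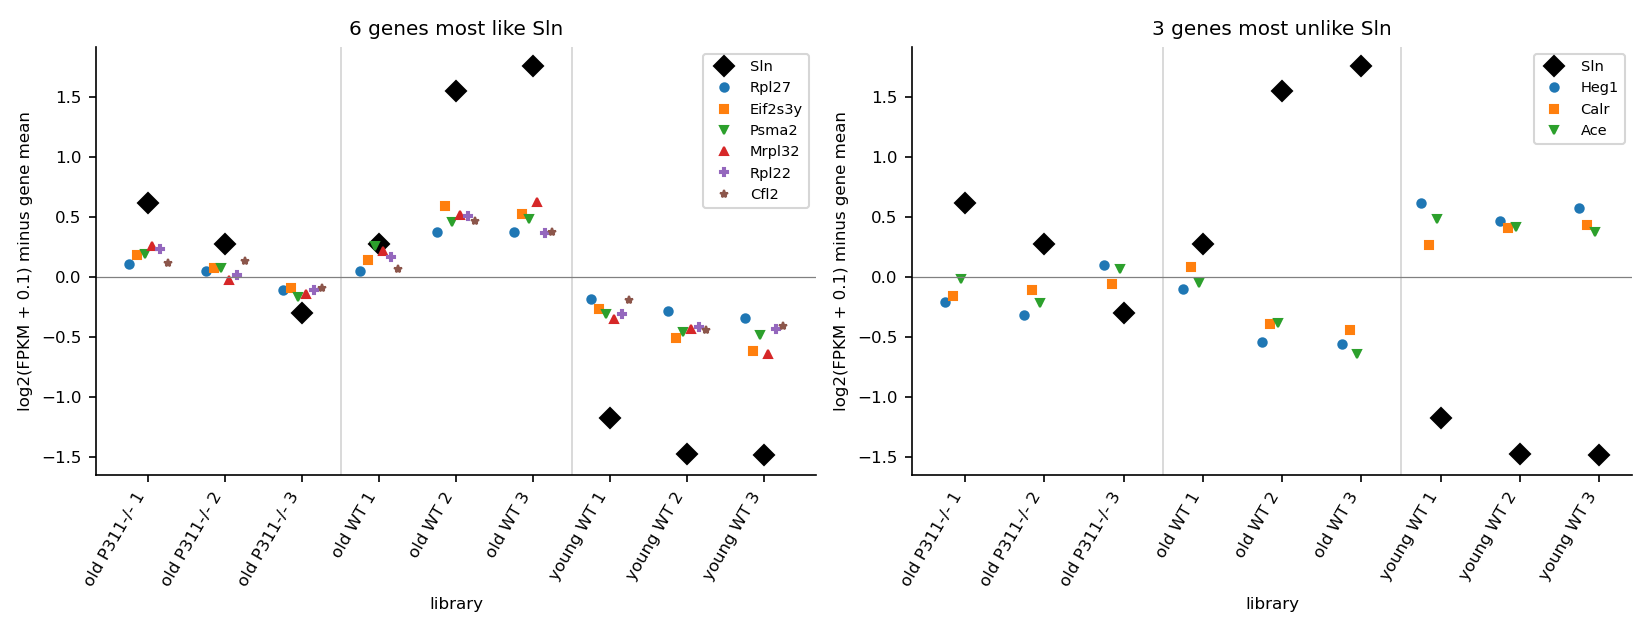
Values of log2(FPKM + 0.1) minus the gene's mean in each of the 9 libraries, for Sln with the 6 genes most like it (left) and the 3 most unlike it (right). Libraries run from old P311-/- through old wild type to young wild type and each marker is 1 library; Sln spans the widest range, and old wild-type replicates 2 and 3 hold its highest values.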

How the data were processed

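The authors deposited FPKM values and gene lengths in bases for 54532 genes in 9 libraries. The submitters' processing notes name HISAT2 2.2.1, featureCounts 2.1.1, DESeq2 1.42.0 and the build mm39, whereas the gene positions in the deposited table are those of GRCm38 (98.3% of the identifiers shared with GENCODE M21 lie at identical positions). The use of strand is not given in the sources used here. Whole reads (within 0.001) were recovered for 100% of the deposited FPKM values from gene length and a factor for each library, and served for depth, filters, total-count scaling and voom.

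Because the deposited unit is FPKM, log2(FPKM + 0.1) of all 9 libraries was tested with limma 3.58.1 in R 4.3.3 (trended, robust moderation), with Benjamini-Hochberg adjustment over 14233 genes and a call at an adjusted p under 0.05. Genes entered with 0.5 FPKM or more, and 10 reads or more, in 3 or more libraries. Shares of gene pairs were compared by two-sided exact permutation over libraries. The method was tested on simulated data. Of genes changed 2-fold it recovered 40%, 49% and 34% in the genotype, age and combined comparisons, and of genes changed 4-fold 86%, 80% and 82%. False calls made up 7.35%, 5.15% and 7.94% of the calls. Many changes of 2-fold or less are thus missed, and a gene that did not pass may still differ. Coding sequences were read from GENCODE M21 transcripts and aligned with Biopython 1.88.

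The genes and lists were chosen with earlier results of these data known. Named are the 10 genes, the other micropeptides, up to 4 called genes per list and comparison (or, with none called, those with the smallest p), the 6 genes most like Sln and 3 most unlike it, and Nrep. One gene that this rule names, and the counts of its list in which it falls, are not reported here. Alternatives were other pseudocounts, filters, scaling, voom, 6 libraries, each library left out and a replicate block.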

Additional observations from a re-analysis of the deposited data

How the results depend on the processing

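Sln kept its direction in all 3 comparisons under all 17 settings. It was selected on the values of these same libraries, so this describes them and is no test of its pattern. Among the 8 tested genes, direction changed for small values. Under total-count scaling, which moved the median of all genes by -0.129 on the log2 scale in the age comparison and -0.139 in the combined comparison, the age difference became -0.037 for Atp2a1, -0.091 for Atp2a2 and -0.058 for Casq1, and the combined one -0.018 for Atp2a2. Smim6, which had 0 to 28 reads, became 0.56 with a pseudocount of 0.01 and 0.092 with voom in the genotype comparison.

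When each library was left out, log2 fold changes in the genotype comparison ranged from -0.091 to 0.21 for Atp2a2, from -0.21 to 0.21 for Casq2 and from -1.03 to 0.60 for Smim6. In the age comparison they ranged from -0.032 to 0.25 for Atp2a1 and from -0.082 to 0.22 for Atp2a2. In the combined comparison they ranged from -0.0084 to 0.26 for Atp2a2 and from -0.025 to 0.48 for Ryr1. The age difference in the SERCA2 share ranged from -0.122 to 0.121 percentage points, and that in the Casq2 share from -0.0239 to 1.02.

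The number of genes called was 10, 768 and 57 in the genotype, age and combined comparisons. Leaving out a library gave 4 to 1875, 0 to 1755 and 4 to 2785. With a mean of at least 5 FPKM the genotype count was 4 and the combined count 101. In fits of 6 libraries the counts were 6, 1653 and 12. With no filter the age count was 5 and the combined count 23, and under total-count scaling they were 346 (27.7% higher, against 62.8%) and 34. The combined count was 87 with a pseudocount of 1 and 139 with voom. With a replicate block the counts were 4, 0 and 5. What the replicate numbers stand for is not stated. Deviations of same-numbered libraries correlated at -0.101 to 0.145, so no strong pairing was seen, and a weak one could be missed. Pln, Smim6 and Strit1 had few or no reads. The part of depth in this, and for Pln that of the overlap with Cep85l, was not tested.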
